A study of Mus musculus with 12 samples.

Results

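Cells take up amino acids through solute carriers, make serine, asparagine, proline and alanine from glucose and glutamate intermediates, and read amino acid shortage through ATF4, a transcription factor whose translation rises when the initiation factor eIF2 is phosphorylated. ATF4 binds short promoter elements, with C/EBP partners, and raises the genes of transporters, amino acid enzymes, aminoacyl-tRNA synthetases and stress regulators. Undifferentiated mouse embryonic stem (ES) cells are known for a high demand for amino acids, and in culture they depend on glutamine and threonine. The genes described here are 39 amino acid transporters, amino acid and one-carbon enzymes, and stress factors around ATF4, matched by symbol. Of these, 37 had a probe set annotated to 1 gene, among 18193 such genes on the arrays. The other 2, Tdh and Pycr1, were not analysed here.

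RNA came from embryoid bodies (EB), the aggregates in which ES cells start to differentiate, and from the J1 mouse ES cell line from which they were made. The EB had spent 5 days in bacterial Petri dishes, in medium with 10% serum, glutamax and nonessential amino acids. The ES cells came from a culture of 2 days on 0.1% gelatin, whose medium held the same supplements and also leukemia inhibitory factor (LIF), beta-mercaptoethanol and sodium pyruvate. Per the labels, visual inspection put the purity of the ES cells at 95%, with DR4 feeders as the remainder. Each state had 3 replicates, and each replicate was hybridised to both chips of the Affymetrix mouse 430 set, here chip A and chip B, which gave 12 arrays. J1 is 1 cell line, and the labels do not state that replicates were separate cultures, so each p-value rests on a spread between samples that may be purely technical.

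Of the 37 genes, 36 were on chip A, 11 on chip B and 10 on both. Where a chip had several probe sets for a gene, the one with the highest mean over the 6 arrays stands for it. Signals are the deposited MAS5 intensities, in arbitrary units that cannot be compared between probe sets. Changes are log2 differences of signal plus a pseudocount (136 on chip A, 253 on chip B), EB minus ES, which understate the change of low genes. A gene is said to have fallen or risen where limma's p, adjusted by the Benjamini-Hochberg method over all probe sets of the chip, was under 0.05. In bulk RNA, fewer cells of a type and less RNA per cell cannot be told apart.

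The array medians ran from 587 to 679 on chip A and from 907 to 996 on chip B. Of 15 ES cell marker genes, read on chip A where it measured the gene and otherwise on chip B, 13 fell in EB, and of 13 mesoderm and neural precursor markers 7 rose and 0 fell, among them Frzb, with 2815, 3053 and 3998 in EB against 59.6, 48.2 and 62.2 in ES cells. Of 27 feeder fibroblast markers 8 fell and 0 rose. Their summed signal was 31806 to 51612 in the EB arrays and 67933 to 101754 in the ES arrays, and Col1a1, the main fibrillar collagen chain, had 54.0, 65.5 and 26.3 in EB against 6088, 3158 and 5524 in ES cells. Every fall described here moved in the same direction as this feeder signal, whose part in it was not tested. Of 7 macrophage markers 0 passed, and of 14 extraembryonic endoderm markers 1 rose on chip A, Foxa2, and 0 fell. On chip B the endoderm marker Dab2 also rose (2.06, adjusted p = 0.0108 by limma), while on chip A it changed by 0.23 and did not pass. On chip A the ES array of replicate 3 had less of the ES cell marker Zfp42 (4392) than the other ES arrays (11168 and 13478). Most other ES cell markers were also lowest there among the ES arrays, such as Klf2 (4076 against 10010 and 14891) and Nr0b1 (1020 against 3437 and 4159). Tdgf1 (19298 against 12905 and 15283) and Dppa3 (6276 against 3779 and 4088) went the other way and were highest in that array. Without that array 9 of the members on chip A fell, against 8 with it. No scan day and no array lot was shared by both states, so neither can be told apart from the state on either chip. On chip A the 3 EB arrays were scanned on 3 days and the ES arrays on 1.

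The promoters are shown first because the element that ATF4 binds with C/EBP partners can be read in them. The 250 bases before the start site were searched for the letters TGATGNAA on both strands in the RefSeq promoter windows of mouse build GRCm38.p6. Of the 33 listed genes with such a window, 7 had a match (21.2%), against 1056 of 27025 genes (3.91%). The genes were listed in part as ATF4 targets, so a larger share among them follows from the list and tests nothing. A match describes letters and is not a site of binding. Slc7a7 was the one gene of the 7 that fell in EB. It had a match in each of 2 windows, at 2 start sites. The match that lies upstream of the other on the gene's strand is printed with up to 30 bases on each side, on the gene's strand and 5′ to 3′, with the matched letters in capitals.
Slc7a7, chr14:54418048-54418115, minus strand: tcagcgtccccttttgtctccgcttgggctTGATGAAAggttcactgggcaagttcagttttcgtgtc

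The other 6 are added to show which genes held the element without passing the test. They are the transporter Slc7a11, the enzymes Asns and Got1, the stress genes Chac1 and Nupr1, and Pycr1, whose expression was not analysed here. In Slc7a11 2 matches face each other, and in Chac1, Nupr1 and Got1 the match lies on the opposite strand and reads TTGCATCA.
Asns, chr6:7693210-7693262, minus strand: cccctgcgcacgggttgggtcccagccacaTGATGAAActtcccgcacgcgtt
Slc7a11, chr3:50443623-50443709, minus strand: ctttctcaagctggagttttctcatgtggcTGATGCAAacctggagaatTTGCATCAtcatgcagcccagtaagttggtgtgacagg
Pycr1, chr11:120643814-120643881, minus strand: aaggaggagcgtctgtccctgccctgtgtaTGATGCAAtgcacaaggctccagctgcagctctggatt
Chac1, chr2:119351019-119351086, plus strand: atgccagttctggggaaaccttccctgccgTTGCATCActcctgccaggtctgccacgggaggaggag
Nupr1, chr7:126625543-126625610, minus strand: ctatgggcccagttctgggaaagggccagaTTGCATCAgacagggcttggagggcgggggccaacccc
Got1, chr19:43524670-43524737, minus strand: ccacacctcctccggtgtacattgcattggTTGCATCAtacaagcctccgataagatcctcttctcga

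Of the 8 genes that fell and had a window, 7 held no match in it, which says only that these letters are absent from those 250 bases.

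In EB, 11 of the 37 genes fell on at least 1 chip and none rose, each read on the probe set that stands for it. For 1 of the 11, Slc38a2, another probe set passed in the opposite direction. The falls lay among the measured transporters (7 of 16, Slc38a2 included) and enzymes (4 of 13), while none of the 8 stress factors and regulators passed. These calls do not set the stress genes apart by size of change from most other roles. On chip A their median change was -0.49, against -0.43 for the Slc1, Slc38 and Slc43 transporters. The median was -0.59 for the serine, glycine and one-carbon enzymes, -0.43 for the other enzymes and -1.13 for the Slc7 and Slc3 genes. On chip A 8 of 36 members fell, against 3.42% of all genes of the chip, and 0 rose, against 3.47%. On chip B 4 of 11 fell, against 6.64% of all genes, and 0 rose, against 6.31%. The median change of the members was -0.54 on chip A, where that of all genes was -0.07, and -0.85 on chip B, where that of all genes was -0.02. On chip A 32 of 36 members had a negative change, against 56.7% of all genes. All 3 EB arrays lay below all 3 ES arrays for 14 of 36 members on chip A, against 15.5% of its genes, and for 7 of 11 on chip B, against 18.2%. At an unadjusted p under 0.05, 15 of 36 members were lower in EB on chip A, against 1498 of its 12393 genes. On chip B 7 of 11 were lower, against 1520 of 9607 genes. At that looser threshold 0 members were higher on either chip, against 1394 genes on chip A and 1502 on chip B. The members had been listed with earlier results of these arrays known, so these shares describe the list and carry no test of it.

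**Figure D1:**
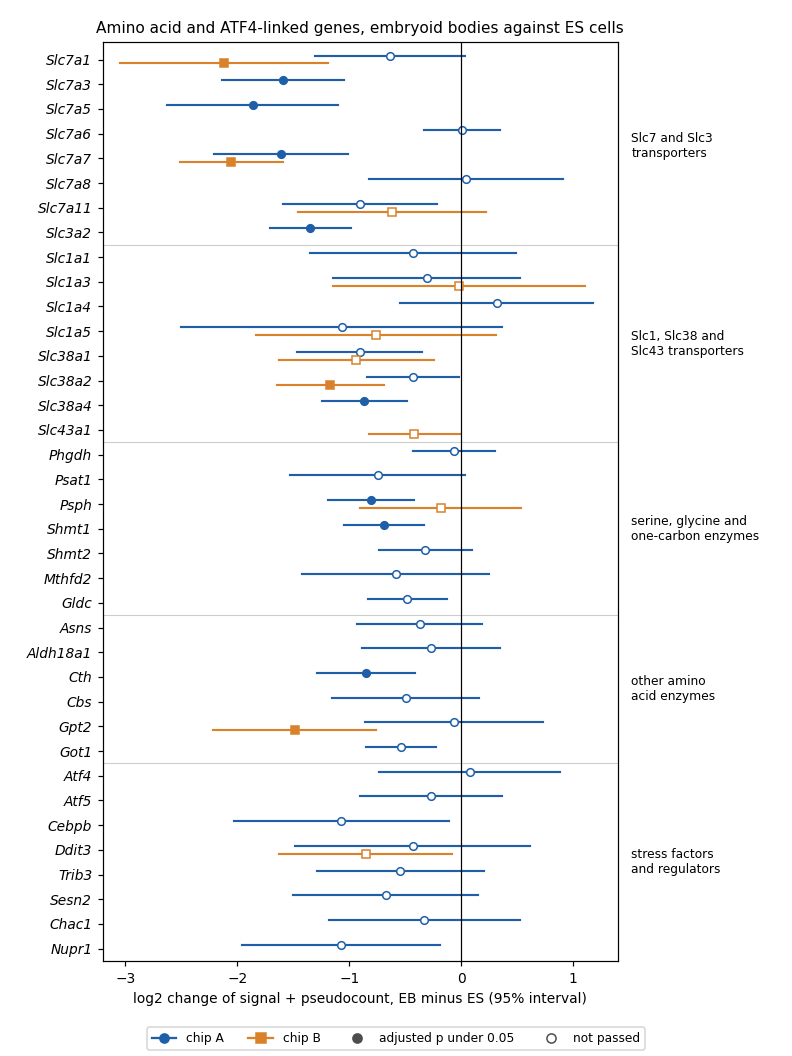
Log2 change of signal plus pseudocount (x axis, EB minus ES) with its 95% interval for each of the 37 genes (rows, grouped by role), circles for chip A and squares for chip B, filled where the adjusted p was under 0.05. Filled symbols, all on the side lower in EB, lie among the transporters and enzymes. The row block of stress factors holds open symbols only, most of them also on that side.

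Among the Slc7 and Slc3 genes, 4 of 8 fell on chip A and 2 of 3 on chip B, which made 5 genes in all. These genes encode the cationic amino acid transporters and the light and heavy chains of the heteromeric transporters. Slc3a2 encodes the heavy chain that carries Slc7 light chains to the plasma membrane. Its signals were 6029, 8780 and 8070 in the EB arrays against 18996, 19238 and 19847 in the ES arrays. The 3 ES values were close together and all EB values were less than 50% of any of them. The change was -1.35 (95% interval -1.71 to -0.99, adjusted p = 0.00246 by limma), the smallest adjusted p among the members on chip A.

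Slc7a5 and Slc7a7 encode light chains that pair with the Slc3a2 product. Slc7a5, the carrier of leucine and other large neutral amino acids, had 1497, 2487 and 4985 in EB against 10198, 8576 and 11561 in ES cells. The EB arrays were the more spread of both sets and did not reach the ES range. The change was -1.86 (-2.63 to -1.10, adjusted p = 0.0145 by limma). It missed the threshold without EB replicate 2 (adjusted p = 0.0574) and without ES replicate 1 (0.0588).

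Slc7a7 encodes the light chain of a carrier that exports arginine and lysine in exchange for neutral amino acids and sodium. It was the one gene that fell on both chips. On chip A it had 1733, 2443 and 2935 in EB against 9095, 4797 and 9045 in ES cells, a change of -1.61 (-2.21 to -1.01, adjusted p = 0.0101 by limma). On chip B it had 4010.4, 3867 and 4135 in EB against 20185, 12985 and 20137 in ES cells, a change of -2.05 (-2.51 to -1.59, adjusted p = 0.00122 by limma). On both chips replicate 2 was the lowest ES array, and it still lay above every EB array. The chips took the same samples, so both readings are not independent.

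Slc7a3 and Slc7a1 encode cationic transporters that take up arginine and lysine without a heavy chain. Slc7a3 had 7353, 7074 and 4166 in EB against 19212, 14200.4 and 22839 in ES cells, a change of -1.59 (-2.14 to -1.05, adjusted p = 0.00724 by limma). Slc7a1 had 848, 2703 and 4055 on chip B in EB against 8667, 9937 and 12351 in ES cells, the widest change of any member at -2.12 (-3.04 to -1.19, adjusted p = 0.0133 by limma). A second Slc7a1 probe set on chip B changed by -1.26, just outside the threshold (adjusted p = 0.0504). The probe set on chip A was dim, with 376, 328 and 288 in EB against 730.1, 673 and 403 in ES cells, and did not pass (-0.64, adjusted p = 0.252). All 3 Slc7a1 probe sets had the EB arrays below the ES arrays.

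The other light chains did not pass. Slc7a6, a relative of Slc7a7 with similar substrates, was the brightest of them and had 2367, 2051 and 2442 in EB against 2271, 2184 and 2354 in ES cells. Its groups overlapped and its change was 0.01 (-0.33 to 0.35, adjusted p = 0.985 by limma). Slc7a11, the cystine and glutamate exchanger, was dim on both chips and changed by -0.90 on chip A (adjusted p = 0.117) and by -0.62 on chip B (adjusted p = 0.314). Slc7a8, another light chain for neutral amino acids, changed by 0.04 on a probe set whose mean signal was 170 over the 6 arrays.

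**Figure D2:**
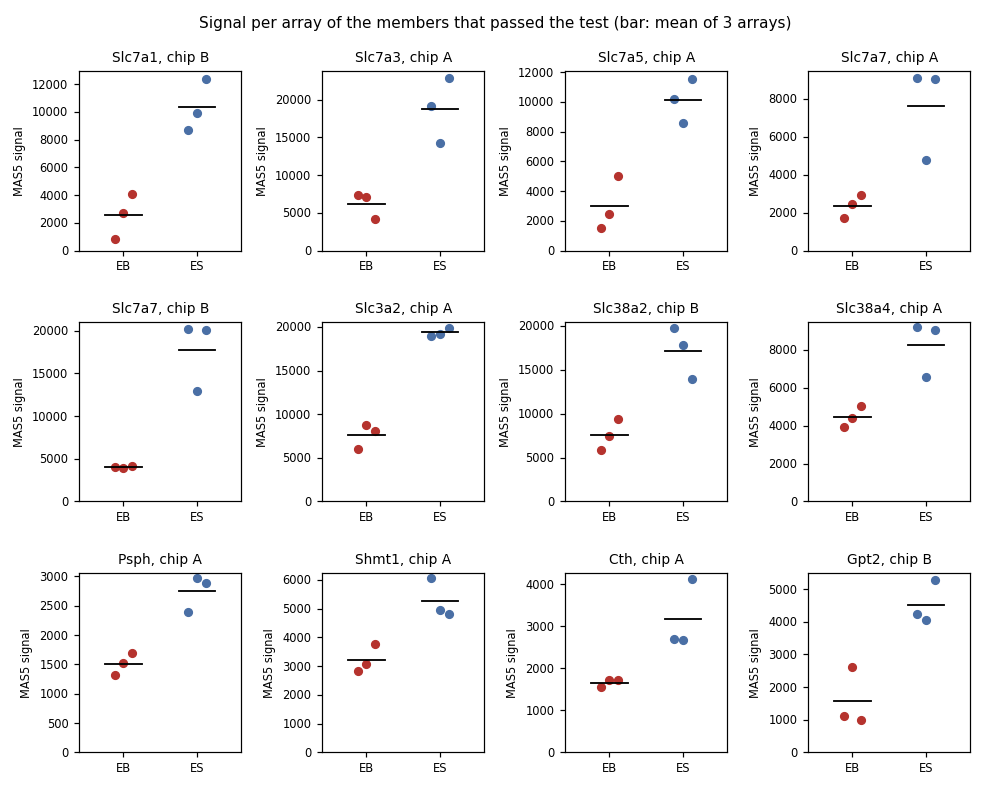
MAS5 signal of each array (y axis, linear from 0) for the 11 genes that passed, EB arrays left of ES arrays, with Slc7a7 shown on each chip and a bar at the mean of 3 arrays. In each of the 12 panels all EB points lie below all ES points, with the narrowest gap relative to the signal in Shmt1 and the widest in Slc7a7 on chip B.

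The Slc1, Slc38 and Slc43 genes encode sodium-dependent and facilitative carriers of glutamate and neutral amino acids. Of these 8 genes 1 of 7 fell on chip A and 1 of 5 on chip B. Slc38a4, a system A carrier of small neutral amino acids, had 3935, 4389 and 5030.2 in EB against 9194, 6579 and 9023 in ES cells. The lowest ES array lay above the highest EB array, and the change was -0.86 (-1.24 to -0.49, adjusted p = 0.0186 by limma). The call was lost without EB replicate 1 (adjusted p = 0.0851), without EB replicate 2 (0.0674) and without ES replicate 1 (0.0809), and without the intensity trend of the fit (0.0662). A second Slc38a4 probe set changed by -0.09 and did not pass, and with both averaged the change was -0.48 (adjusted p = 0.158).

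Slc38a2, the system A carrier that many cells raise when amino acids run short, gave opposite readings on its 2 probe sets of chip B. The brighter one had 5889, 7407 and 9363 in EB against 19724, 17807 and 13994 in ES cells, a change of -1.17 (-1.64 to -0.69, adjusted p = 0.01002 by limma). The other had 4690.1, 4165 and 7589 in EB against 1845, 2803 and 2319 in ES cells, a change of 1.13 (adjusted p = 0.0268 by limma), and was the one member probe set of 84 that passed as higher in EB. The groups were apart on both probe sets, in opposite directions. On chip A a probe set of this gene had 9091, 7167 and 7457 in EB against 10664, 8451 and 13405 in ES cells, with overlapping groups and a change of -0.43 (adjusted p = 0.205). With both chip B probe sets averaged the change was -0.02 (adjusted p = 0.958), so no direction is given for the gene as a whole.

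Slc38a1, the remaining system A carrier, changed by -0.91 on chip A and by -0.94 on chip B with adjusted p of 0.0618 and 0.0808, and its EB arrays lay below its ES arrays on both chips. Slc43a1, a carrier of branched-chain amino acids measured on chip B alone, changed by -0.42 (adjusted p = 0.169). The glutamate and neutral amino acid carriers Slc1a1, Slc1a3, Slc1a4 and Slc1a5 had overlapping groups on every chip that measured them. Slc1a5, a main route of glutamine entry, spread widely, with 335, 841 and 163 in EB against 251, 1273 and 2192 in ES cells on chip A. Its interval ran from -2.50 to 0.36, so neither a fall nor a rise was detectable with 3 arrays a group.

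**Figure D3:**
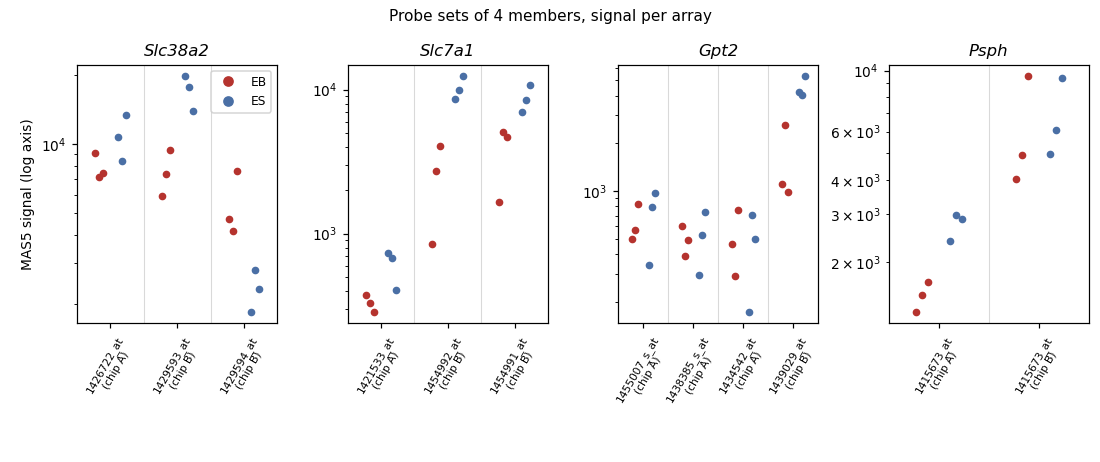
MAS5 signal of each array (y axis, log scale) for every probe set of Slc38a2, Slc7a1, Gpt2 and Psph, EB points left of ES points within each probe set. The 2 chip B probe sets of Slc38a2 run in opposite directions, and the probe sets of Gpt2 and Psph separate EB from ES on 1 chip and overlap on the other.

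Serine is made from a glycolytic intermediate in 3 steps, by Phgdh, Psat1 and Psph in that order, and is then turned into glycine and one-carbon units by Shmt1 in the cytosol and Shmt2 in mitochondria. Of the 7 measured genes of serine, glycine and one-carbon metabolism, 2 fell on chip A and 7 had a negative change, each on the probe set that stands for it. Psph, the final step of serine synthesis, had 1324, 1525 and 1693 in EB against 2387, 2972 and 2887 in ES cells on chip A, a change of -0.81 (-1.19 to -0.42, adjusted p = 0.0248 by limma). By its identifier the same probe set is on chip B too, where it had 4038, 4942 and 9528 in EB against 4951, 6089 and 9389 in ES cells. The groups overlapped there and the change was -0.18 (adjusted p = 0.752 by limma). This second reading of the same samples did not repeat the call. The call on chip A was lost when any array except ES replicate 3 was left out, with adjusted p of up to 0.104, reached without EB replicate 1, and without the intensity trend (0.0605).

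Shmt1 had 2831, 3079.7 and 3768 in EB against 6072, 4954 and 4804 in ES cells, a change of -0.69 (-1.05 to -0.33, adjusted p = 0.0366 by limma). Of its 4 probe sets 2 passed and all 4 had a negative change. The call on Shmt1 was lost without EB replicate 1 (adjusted p = 0.144), EB replicate 2 (0.120), ES replicate 1 (0.137) or ES replicate 2 (0.0667), under median scaling (0.0629), without the intensity trend (0.0977) and with the replicate number as a block (0.0690).

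Phgdh, the first and committed step, had 9021, 10923 and 11079 in EB against 11664, 8859 and 12088 in ES cells. The groups overlapped and the change was -0.06 (-0.43 to 0.30, adjusted p = 0.863 by limma). Its other probe sets on chip A changed by 0.21, 0.15 and 0.18 and did not pass. With all of them averaged the change of Phgdh was 0.12 (adjusted p = 0.793 by limma). Psat1, the middle step, had 4034, 7369 and 9627 in EB against 6849, 12786 and 15732 in ES cells, a change of -0.74 (-1.52 to 0.04, adjusted p = 0.253). In both states the lowest Psat1 value was in replicate 1. Gldc, of the glycine cleavage system, Mthfd2, a mitochondrial folate enzyme, and Shmt2 changed by -0.48, -0.59 and -0.32 and did not pass.

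The other 6 enzymes measured make or break down asparagine, proline, cysteine, alanine and aspartate, and all 6 had a negative change on chip A. Cth, which cleaves cystathionine to give cysteine, had 1562, 1709.95 and 1711 in EB against 2694, 2672 and 4133 in ES cells. The EB values lay close together and below every ES value, with a change of -0.85 (-1.28 to -0.42, adjusted p = 0.0331 by limma). The Cth call was lost without EB replicate 1 (adjusted p = 0.119), EB replicate 2 (0.0943), EB replicate 3 (0.0858) or ES replicate 1 (0.0685), under median scaling (0.0654) and without the intensity trend (0.0769). Cbs, the step before Cth, changed by -0.50 and did not pass (adjusted p = 0.364).

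Gpt2, the mitochondrial alanine transaminase, had 1109, 2613 and 983 on chip B in EB against 4232, 4041 and 5275 in ES cells, a change of -1.49 (-2.22 to -0.76, adjusted p = 0.0205 by limma). On chip A it had 3 probe sets, with changes of -0.06, -0.01 and 0.16, and none passed. The call on chip B was lost without EB replicate 1 (adjusted p = 0.0731), EB replicate 3 (0.0651), ES replicate 1 (0.0645), ES replicate 2 (0.0522) or ES replicate 3 (0.0704).

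Got1, the cytosolic aspartate transaminase, had 7424, 6708 and 7279 in EB against 9832, 11952 and 9580 in ES cells. Its groups did not overlap, and its change of -0.54 (-0.85 to -0.23) just missed the threshold (adjusted p = 0.0518 by limma). Asns, the asparagine synthetase and a textbook ATF4 target, was brighter on its array than any other member without a call, with 7485, 15967 and 11472 in EB against 12512, 16962 and 14073 in ES cells. Its groups overlapped and its change was -0.37 (-0.93 to 0.19, adjusted p = 0.433). Aldh18a1, the entry enzyme of proline synthesis, changed by -0.27.

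None of the 8 stress factors and regulators passed on either chip, and 7 of the 8 had a negative change on chip A. Atf4 itself had 5242, 9611 and 10732 in EB against 4797, 7118 and 13469 in ES cells. Both groups covered the same range, and the change was 0.08 (-0.74 to 0.89, unadjusted p = 0.839 and adjusted p = 0.931 by limma). With the fluidics position of the arrays as a block, a fit in which EB replicate 1 and ES replicate 3 share a position with no array of the other state, Atf4 was the one member that rose (0.78, adjusted p = 0.0482). These are levels of mRNA, while ATF4 is known to be set largely by translation.

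Among the targets and partners of ATF4, Ddit3, the pro-apoptotic C/EBP relative also called CHOP, changed by -0.43 on chip A (adjusted p = 0.647) and by -0.85 on chip B (adjusted p = 0.142). On chip B it had 293, 280.0 and 337 in EB against 574, 795 and 911 in ES cells, without overlap but near the pseudocount in EB. Trib3, a pseudokinase that restrains ATF4, changed by -0.54, Chac1, which degrades glutathione, by -0.33, Sesn2, a leucine-binding inhibitor of mTORC1, by -0.67, and Atf5, a relative of Atf4, by -0.27. Cebpb, a C/EBP partner of ATF4, and Nupr1, a small stress-induced chromatin protein, both changed by -1.07 with adjusted p of 0.177 and 0.145. On the probe set that stands for the gene, Nupr1 was the one of these 8 whose groups did not overlap on chip A, with 56.1, 346 and 302 in EB against 516, 790.4 and 489 in ES cells. On chip A second probe sets of Nupr1 (-1.26, adjusted p = 0.0705 by limma), Trib3 (-0.95, 0.102) and Cebpb (-0.74, 0.233) also had all EB arrays below all ES arrays.

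On chip A many of the genes varied together between arrays of the same state. Replicate 1 held the lowest signal in both EB and ES cells for 14 of 36 members (38.9%), against 8.93% of all genes of the chip. For EB alone replicate 1 was lowest for 24 members (66.7%, against 35.3% of all genes), and for ES cells alone for 18 (50.0%, against 28.5%). Shares this high in each state alone would give many genes lowest in both even if the states were unrelated. All 7 serine, glycine and one-carbon enzymes were lowest in EB replicate 1, and 4 of them were also lowest in ES replicate 1, namely Psat1, Psph, Shmt2 and Mthfd2. Mthfd2 had 1561, 3573 and 4671 in EB against 2951, 5226 and 6038 in ES cells, and Chac1 had 633, 1463 and 1554 in EB against 890.3, 1428 and 2421 in ES cells. For both genes the spread within a state was wider than the difference between the state means. Atf4, Trib3, Asns, Aldh18a1, Slc1a4 and Slc38a1 also had their lowest value of each state in replicate 1. Replicate numbers do not tie an EB sample to an ES sample in the labels, and over all probe sets samples of equal number did not deviate together. On chip B, which holds few of these genes, the count for both states was 2 of 11 against 8.91%. There replicate 1 was lowest for 4 members in EB and for 5 in ES cells. This pattern was noticed in these arrays and was not tested.

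**Figure D4:**
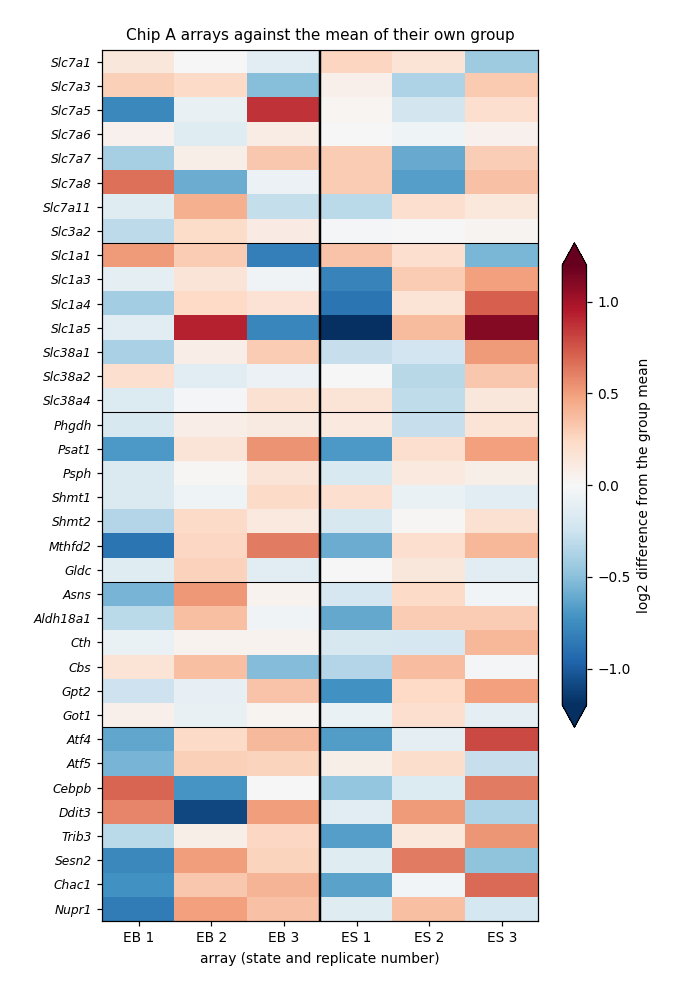
Difference of each chip A array from the mean of its own state (colour, log2 scale, clipped at the ends of the bar) for the 36 members on chip A (rows, by role), EB arrays left of ES arrays. Many enzyme and stress gene rows are blue in replicate 1 of both states, among them Psat1, Mthfd2, Atf4 and Chac1, while Slc7a3 and Slc7a7 follow other patterns.

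The fluidics position was shared by an EB and an ES array in 2 cases on chip A and 3 on chip B. With the position as a block, Slc7a3, Slc7a5, Slc7a7 and Slc3a2 still fell on chip A, with changes of -1.58, -1.37, -1.26 and -1.17, while Slc38a4 (adjusted p = 0.0961 by limma), Psph (0.139), Shmt1 (0.118) and Cth (0.163) did not pass. The 4 members that fell on chip B, Slc7a1, Slc7a7, Slc38a2 and Gpt2, did so with the block too, with adjusted p of 0.00266, 0.000854, 0.0145 and 0.0209. Within single positions the changes ran between -1.98 and -0.38 for the 8 members that fell on chip A and between -3.02 and -0.57 for the 4 on chip B. Their sign was fixed by the choice of members whose groups did not overlap.

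Genes of the same pathways outside the 39 were counted from 4 further lists, on chip A where it measured the gene and otherwise on chip B. Over all genes 3.42% fell and 3.47% rose on chip A, and 6.64% fell and 6.31% rose on chip B. The counts of the 4 lists are small and were not tested against these shares. Of 37 other amino acid transporters 3 fell and 0 rose. They were Slc36a2, a proton-coupled carrier of glycine and proline (707, 380.3 and 377 in EB against 2845, 2433 and 2297 in ES cells, -1.93), Slc25a12, the mitochondrial aspartate and glutamate carrier (-1.92), and Slc6a6, the taurine transporter (-0.82). Of 19 aminoacyl-tRNA synthetases, many of them ATF4 targets, Mars1 fell (-0.93, chip B) and 0 rose. Farsa, the catalytic subunit of phenylalanyl-tRNA synthetase, rose on its chip B probe set (0.84, adjusted p = 0.0344) and changed by -0.14 on chip A, without passing.

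Of 36 other amino acid and folate enzymes and carriers 4 fell and 2 rose. Glud1, the mitochondrial glutamate dehydrogenase, had 5702, 6213 and 6785 in EB against 15190.1, 17120 and 16525 in ES cells, a change of -1.37 (adjusted p = 0.00100 by limma). Folr1, a folate receptor, changed by -1.76 and Srr, the serine racemase, by -1.33. Srr was dim and near the pseudocount in EB, with 296, 75.3 and 150 against 704, 527 and 611 in ES cells (adjusted p = 0.0463 by limma). The rises were Oat, ornithine aminotransferase, at 0.97 and Mat2b, a regulatory subunit of methionine adenosyltransferase, at 0.76. Read on chip B, the transaminase genes Got2 (1.87, adjusted p = 0.00904 by limma) and Gpt (1.15, adjusted p = 0.0312) rose as well, while on chip A they changed by -0.02 and -0.94 and did not pass.

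Of 43 other genes of the integrated stress response and the unfolded protein response 4 fell and 3 rose. Ddit4, a stress-induced inhibitor of mTORC1, had 13449, 9618 and 8619 in EB against 2041, 4017 and 5516 in ES cells, a change of 1.502 (adjusted p = 0.0233 by limma). Sesn3, a relative of Sesn2, rose by 1.299 and Impact, an inhibitor of the eIF2 kinase GCN2, by 1.11. The endoplasmic reticulum chaperone gene Hsp90b1 fell by 1.06 on the log2 scale, Xbp1, a transcription factor of the unfolded protein response, by 0.998, and Nfe2l1, a transcription factor of proteasome genes, by 0.97.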

How the data were processed

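Total RNA of 3 EB and 3 ES samples was read on both Affymetrix chips. The deposited tables hold linear intensities made with MAS5 by the authors, per the submitters' processing notes (version not given in the sources used here). The values show a common scale per array, and were not normalized again. Detection calls were not used here. Probe sets were named through GEO's platform annotation. On chip A 20380 had 1 gene, 691 several and 1555 none listed, and on chip B 14661, 245 and 7605. Control probe sets, 64 a chip, did not enter.

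Each chip was fitted on its own with limma 3.58.1 in R 4.3.3 (lmFit, eBayes with an intensity trend) on log2(intensity + the chip's 20th percentile), 3 arrays against 3, with Benjamini-Hochberg adjustment over all probe sets and a threshold of 0.05. Intervals are 95% intervals of the fit. The number of arrays limits the precision. In simulated data 26 of 100 probe sets changed by 2-fold and 89 of 100 changed by 4-fold were recovered on chip A, and 5 and 52 of 100 on chip B. The changed probe sets were drawn from those brighter than the median, so dim members are not covered. Far fewer probe sets were changed there than passed in the real data, which makes the adjustment stricter. These rates are therefore not those of the real test. The members, lists and tests were chosen with earlier results of these data known. All members are accounted for: those that passed get every array, as does the brightest that did not in each role, and up to 3 genes each way are named in each other list. Values of further members, promoters of members that did not pass, and the chip B values of Dab2, Farsa, Got2 and Gpt, were added after their values were seen. Alternatives were 2 other scalings (quantile, median), pseudocounts of 1 and of the median signal, no dim probe sets, no trend, blocks for replicate number, scan day and fluidics position, other probe set rules, a threshold of 0.01 and leaving out each array.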

Additional observations from a re-analysis of the deposited data

How the results depend on the processing

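The count of members that fell on chip A was 8, and became 4 without the intensity trend, 4 with the fluidics position as a block, 2 at a threshold of 0.01, and 3 to 9 when 1 array was left out (3 without EB replicate 2 or ES replicate 1, 4 without EB replicate 1). Members that rose on chip A numbered 0, and 1 with the fluidics position as a block. On chip B the count of 4 became 1 at a threshold of 0.01 and 3 or 4 when 1 array was left out. All probe sets that passed on chip A numbered 1425, and 844 without the trend, 2243 with the scan day as a random block (estimated correlation -0.113), 343 at 0.01, and 436 to 2091 when 1 array was left out. Because no day was shared by both states, the scan day block cannot separate the day from the state. On chip B 2405 passed, 564 at 0.01 and 934 to 1807 when 1 array was left out. Slc3a2 and Slc7a3 passed under all 12 other settings and Slc7a7 on chip B under all 11. These genes had no other probe set on those chips, so the other probe set rules could not alter their changes. Slc3a2, Slc7a3 and Slc7a7 on chip B also passed with any 1 array left out. So did Slc7a1 and Slc38a2 on chip B and Slc7a7 on chip A.

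Samples of equal replicate number did not deviate together (correlations of -0.07 to 0.04 on chip A and -0.03 to -0.02 on chip B). With the replicate block 9 members fell on chip A and 4 on chip B, with Psat1 (-0.74) and Slc38a1 (-0.91) gained and Shmt1 (-0.69) lost on chip A.

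Some members that did not pass changed sign under a setting. With the fluidics position as a block these were Slc7a8 (-0.11), Phgdh (0.11), Mthfd2 (0.054), Aldh18a1 (0.046), Gpt2 on chip A (0.30) and Chac1 (0.38). Phgdh and Gpt2 turned under median scaling (0.021 and 0.006) and with probe sets averaged (0.12 and 0.029), Gpt2 also without probe sets ending in _x_at or _s_at (0.16), and Slc1a3 on chip B with a pseudocount of 1 (0.032). With 1 array left out the changes ran -0.039 to 0.079 for Slc7a6, -0.29 to 0.34 for Slc7a8, -0.12 to 0.68 for Slc1a4, -0.20 to 0.03 for Phgdh, -0.43 to 0.18 for Gpt2 on chip A, -0.26 to 0.47 for Atf4, -0.41 to 0.009 for Atf5, -0.73 to 0.12 for Ddit3, -0.65 to 0.038 for Chac1, -0.69 to 0.47 for Slc1a3 on chip B and -0.53 to 0.067 for Psph on chip B. The causes were not tested.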
